A study of Mus musculus with 2 samples.

Results

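The MYC, MAX and MXD network is described here through 9 genes, Myc, Max, Mxd1, Mxd3, Mxd4, Mxi1, Mnt, Mga and Mlx, chosen by name from the 43346 features of the deposited gene table. All 9 were found and all 9 passed a filter on low values (50 or more reads summed over the libraries, and 1 RPKM or more in one of them), as 9613 features did in all. Cells were of the line X63/0 (X63-Ag8.653), a mouse plasmacytoma line. One culture was taken after 3 h in 30 mM cycloleucine, an amino acid analogue that inhibits the synthesis of S-adenosylmethionine (SAM), and the other was left untreated. Both cultures were grown in serum-containing medium with 2-mercaptoethanol, and total RNA depleted of ribosomal RNA was sequenced on an Ion Proton. The series describes triplicates, and the libraries analysed here were 1 per condition, so differences could not be checked against replicates and no test between conditions was possible. The series' title names lowered intracellular SAM as the subject, and the comparison asks how transcripts of this network differed between the cycloleucine and the untreated library.

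MYC is a transcription factor of the basic helix-loop-helix leucine zipper family that binds the E-box CACGTG as a heterodimer with MAX and activates genes of ribosome production, metabolism and cell division. The MXD proteins, MXI1 and MNT compete for MAX, bind the same E-box and recruit SIN3 corepressors, and MGA is a large MAX partner found in a variant Polycomb repressive complex. MLX is a second shared partner, which pairs with MXD1, MXD4, MNT and the glucose-responsive factors MLXIP and MLXIPL. Mouse plasmacytomas characteristically carry a translocation that joins Myc to an immunoglobulin locus, and MYC is known in B lineage cells for driving growth and for falling as plasma cells mature.

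The E-box is the element through which these proteins act, so the promoters of the 9 genes themselves were searched for it in RefSeq promoter sequences of GRCm38.p6 (250 bases before to 50 after each start). Of the 8 genes with an entry, 4 held CACGTG, a motif that reads alike on both strands, against 8.09% of the 27025 genes in that table and 12.7% of the kept features with an entry. The 4 sites are shown with their flanks, each on the strand of its gene, with the E-box in capitals. The Max site lay at chr12:76962234-76962263 on the minus strand, with its first E-box base 3 bases before the start. That of Mlx lay at chr11:101087238-101087267 on the plus strand, 40 bases before. For Mnt the window was chr11:74830789-74830818 on the plus strand, 123 bases before, and for Mxd4 it was chr5:34187912-34187941 on the minus strand, 219 bases before. A match describes the letters and does not show binding.
Max: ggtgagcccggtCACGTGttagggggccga
Mlx: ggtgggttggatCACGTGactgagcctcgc
Mnt: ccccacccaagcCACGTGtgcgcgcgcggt
Mxd4: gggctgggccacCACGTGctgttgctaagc

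The cycloleucine library held 31951946 reads in genes and the untreated library 27127865, of which exon reads were 49.4% in the cycloleucine and 48.4% in the untreated library. Levels are RPKM, exon reads per kilobase of exon and scaled to the gene reads of the library. The plasma cell label fitted its markers, since all 7 plasma cell genes looked up (Sdc1, Xbp1, Prdm1, Irf4, Mzb1, Tnfrsf17 and Igj) passed the filter, with a summed RPKM of 867 in the cycloleucine and 860.3 in the untreated library. Markers of mature B cells were low apart from Ms4a1, of whose exon reads only 31.3% were uniquely placed. Reads of T and natural killer cell markers summed to 11 in the cycloleucine and 15 in the untreated library, and of myeloid markers to 87 in both. Those of fibroblast markers summed to 18 in the cycloleucine and 35 in the untreated library.

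Myc was by far the most abundant transcript of the network and was slightly lower in the cycloleucine library. Its level was 181 RPKM in the cycloleucine library and 209 RPKM in the untreated library, from 16005 and 15679 exon reads. That is 0.867-fold with a 95% counting interval of 0.848 to 0.886, a log2 fold change of -0.21. In bulk RNA such a difference cannot be told apart between fewer cells that make a transcript and less of it per cell. Intervals are exact intervals of the reads of these 2 libraries and cover counting error only. Log2 fold changes had 0.1 RPKM added to both values, which understates the change of low genes, and values past 1.5-fold on that scale (0.58 in log2) were called changed, in place of a test. Myc did not pass that rule, and 1434 of the 9613 kept features (14.9%) had a value as low or lower.

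**Figure D1:**
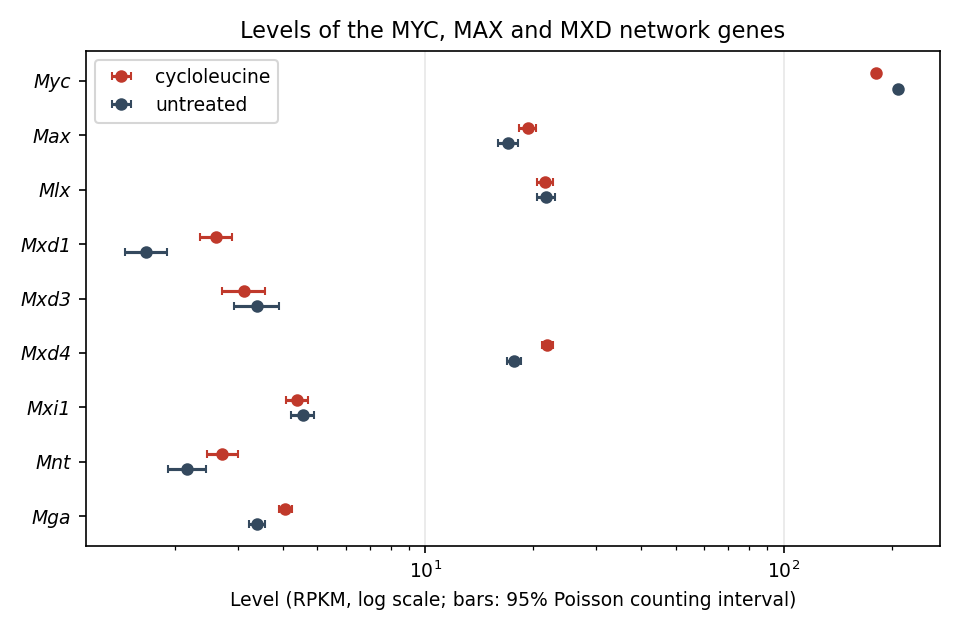
Level of each network gene in RPKM on a log axis, with the cycloleucine library above the untreated library and 95% Poisson counting intervals as bars. Myc stands at 181 RPKM in the cycloleucine and 209 RPKM in the untreated library, about an order of magnitude above Mxd4, Mlx and Max, and the Mxd1 intervals of the libraries lie apart.

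Below Myc the network fell into 2 tiers. In the cycloleucine library Mxd4 (21.9 RPKM) and Mlx (21.6 RPKM) had overlapping intervals and Max (19.3 RPKM) lay below them, while in the untreated library Mlx (21.8 RPKM) lay above Mxd4 (17.7 RPKM) and Max (17.02 RPKM), whose intervals overlapped. The lower tier held Mxi1, Mga, Mxd3, Mnt and Mxd1. In the cycloleucine library Mxi1 and Mga overlapped at the top of it, and Mxd3, Mnt and Mxd1 followed at 3.13 to 2.61 RPKM, each overlapping the next. In the untreated library Mga and Mxd3 overlapped at 3.40 RPKM, and Mnt (2.17 RPKM) and Mxd1 (1.67 RPKM) stood apart from each other and from the rest.

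Of the 9 genes, 5 were higher in the cycloleucine library with a counting interval wholly above 1-fold (Mxd1, Mnt, Mxd4, Mga and Max), 1 was lower with an interval below 1-fold (Myc), and the intervals of Mxd3, Mxi1 and Mlx included 1-fold. Among all kept features 50.9% lay above 0 in log2, 22.9% had an interval above and 21.0% one below 1-fold. At the 1.5-fold rule 1 member, Mxd1, was higher and 0 were lower, against 3.03% and 2.47% of kept features. That share of the members rests on 1 gene. The median log2 fold change of the 9 genes was 0.18, beside 0.0035 over all kept features.

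Max, the obligate partner of MYC and of the MXD proteins, had 19.3 RPKM in the cycloleucine library and 17.02 RPKM in the untreated library, from 1237 and 926 exon reads. The fold was 1.13 (1.04 to 1.24). Junction reads, which span spliced exons, numbered 204 in the cycloleucine and 142 in the untreated library, 1.249-fold relative to uniquely placed reads (1.003 to 1.56). Intron reads were 211 in the cycloleucine and 172 in the untreated library, or 1.04-fold (0.848 to 1.28). Max was thus a little higher in spliced reads. The interval of its intron reads held 1-fold and also the exon fold of 1.13, so it does not show that intron and exon reads differed.

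Mlx differed least of the shared partners, with 21.6 RPKM in the cycloleucine and 21.8 RPKM in the untreated library (1378 and 1181 exon reads). Its fold was 0.991, and the interval of 0.916 to 1.07 does not exclude a difference of that size either way. The last 385 bases of Mlx overlap Psmc3ip on the opposite strand, and no source used here says whether reads were counted by strand.

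Mxd1 encodes a MAX partner that represses E-box genes and is known to be induced when cells leave the cycle and differentiate. It had 2.61 RPKM in the cycloleucine library and 1.67 RPKM in the untreated library, from 389 and 211 exon reads. The fold was 1.57 (1.32 to 1.86) and the log2 fold change 0.62, and 255 kept features, 2.65%, were as high or higher. Junction reads were 41 in the cycloleucine and 16 in the untreated library, 2.23-fold (1.22 to 4.25), whereas intron reads were 34 in the cycloleucine and 43 in the untreated library, 0.671-fold (0.415 to 1.08). Exon and junction reads of Mxd1 were therefore higher and its intron reads were not. The call sits close to the rule, and with 1 RPKM added in place of 0.1 the log2 fold change was 0.44, short of 1.5-fold.

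Mxd4, the most abundant of the MAX-binding repressors here, had 21.9 RPKM in the cycloleucine library and 17.7 RPKM in the untreated library, from 2719 and 1862 exon reads. The fold was 1.24 (1.17 to 1.32), a log2 fold change of 0.31. Junction reads were higher with it, at 231 in the cycloleucine and 155 in the untreated library, a fold of 1.296 (1.05 to 1.598), while intron reads were 329 in the cycloleucine and 274 in the untreated library, a fold of 1.02 (0.866 to 1.20). An annotated antisense gene overlaps 1001 bases of Mxd4, and its part in these reads was not tested.

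Mnt, a broadly expressed antagonist of MYC that binds both MAX and MLX, had 2.72 RPKM in the cycloleucine library and 2.17 RPKM in the untreated library, from 402 and 272 exon reads. Its fold was 1.255 (1.07 to 1.47). Junction reads did not separate the libraries, at 29 in the cycloleucine and 27 in the untreated library (fold interval 0.534 to 1.64), and neither did intron reads, at 75 in the cycloleucine and 77 in the untreated library (0.594 to 1.15). The junction interval also held the exon fold of 1.255, so it does not show whether junction reads of Mnt differed from its exon reads.

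Mga, which carries a T-box as well as a helix-loop-helix region, had 4.07 RPKM in the cycloleucine library and 3.40 RPKM in the untreated library, from 1997 and 1416 exon reads. The fold was 1.197 (1.12 to 1.28). Among the 9 genes it was the 1 with intron reads higher beyond their counting interval, 379 in the cycloleucine and 248 in the untreated library, 1.297-fold (1.10 to 1.53). Exon and intron reads of Mga were thus higher together. Its junction reads were 220 in the cycloleucine and 171 in the untreated library, 1.12-fold (0.912 to 1.37). That interval held 1-fold and also the exon fold of 1.197.

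Mxi1 and Mxd3 did not differ beyond counting error in exon reads. Mxi1, a close relative of MXD1, had 4.38 RPKM in the cycloleucine and 4.55 RPKM in the untreated library, 787 and 693 exon reads, a fold of 0.964 (0.869 to 1.07). Its junction reads were 164 in the cycloleucine and 116 in the untreated library, 1.23-fold (0.963 to 1.57). Mxd3, the MXD gene known for expression in dividing cells, had 3.13 RPKM in the cycloleucine and 3.40 RPKM in the untreated library, 208 and 192 exon reads, a fold of 0.920 (0.752 to 1.13). Those intervals do not exclude differences of up to about 1.3-fold in Mxd3. Uniquely placed reads made up at least 89.3% of exon reads in every member and library, the lowest share being that of Mxi1 in the cycloleucine library. Prelid1 overlaps Mxd3 by 105 bases, and 2 annotated genes overlap Mxi1 by 5146 and 201 bases, all on the opposite strand. On the same strand, unclassified annotated genes overlap Mxd1 by 2364 bases and Max by 1319 bases.

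**Figure D2:**
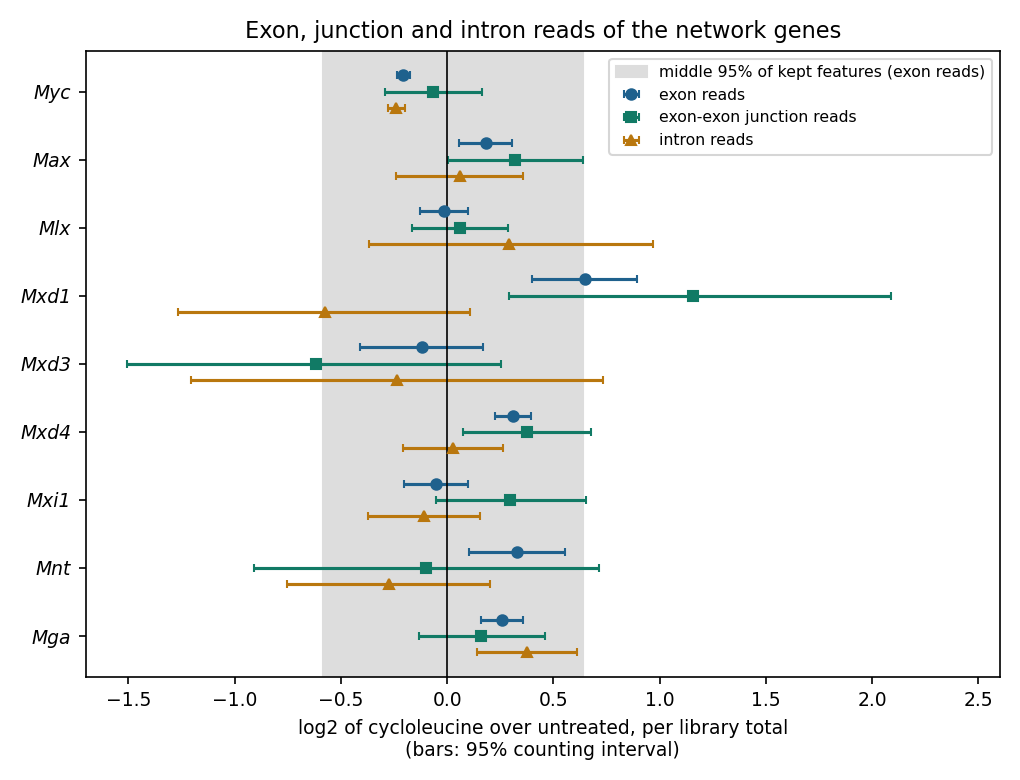
Log2 of the cycloleucine over the untreated library for exon, exon-exon junction and intron reads of each gene, with 95% counting intervals and, in grey, the middle 95% of kept features for exon reads (-0.58 to 0.64). Exon and intron reads of Myc lie together at -0.21 and -0.24, while those of Mxd1 lie on opposite sides of 0.

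Ratios between members within a library do not depend on how the libraries were scaled. Myc was 9.38 times the level of Max in the cycloleucine library and 12.3 times in the untreated library, a log2 change of -0.39 (-0.51 to -0.26). Against Mxd4 the ratio was 8.26 in the cycloleucine and 11.8 in the untreated library, a change of -0.52 (-0.61 to -0.43). Relative to Mxd1, Myc stood at 69.3 times in the cycloleucine and 125 times in the untreated library, the widest shift of the 8 ratios at -0.85 (-1.10 to -0.61). All 8 ratios of Myc to another member were lower in the cycloleucine library. The interval of the ratio to Mxd3 included no change (-0.37 to 0.20), that to Mxi1 came close to it (-0.30 to -0.0031), and that to Mlx was -0.31 to -0.08. These ratios share the Myc reads and are not independent of each other.

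Summed over the 6 genes Mxd1, Mxd3, Mxd4, Mxi1, Mnt and Mga, the level was 38.8 RPKM in the cycloleucine library and 32.9 RPKM in the untreated library. This was 21.5% of the Myc level in the cycloleucine library and 15.7% in the untreated library. Mxd4 alone made up 56.4% of the sum in the cycloleucine and 53.8% in the untreated library. Within the group, Mxd1 was higher relative to Max (log2 change 0.46, 0.19 to 0.74) and Mxi1 was lower relative to Max (-0.23, -0.43 to -0.04). The intervals for Mxd3, Mxd4, Mnt and Mga relative to Max included no change.

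**Figure D3:**
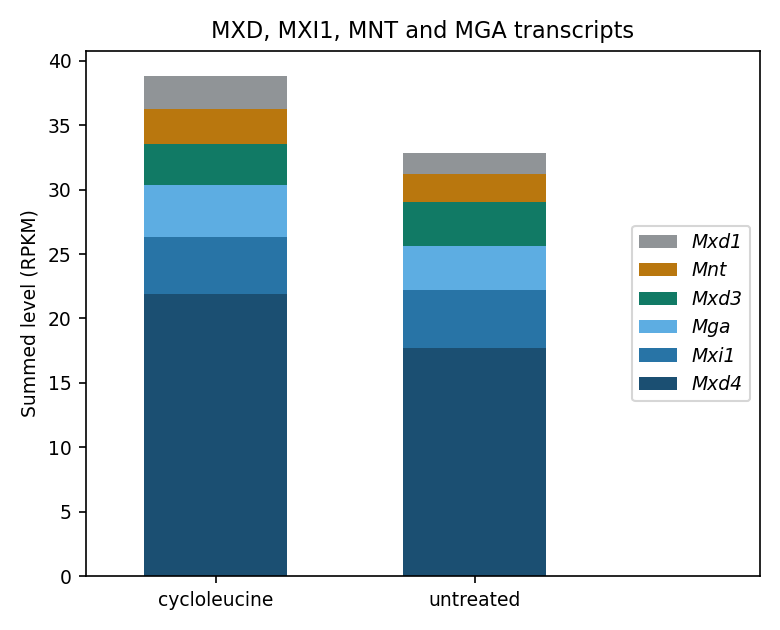
Summed level in RPKM of the 6 genes that encode MAX-binding repressors, stacked by gene, for the cycloleucine and the untreated library. The stack reaches 38.8 RPKM in the cycloleucine and 32.9 RPKM in the untreated library, and Mxd4 is the thickest layer in both.

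Intron reads set Myc apart from the other members in both libraries. Of its gene reads 36.3% fell in introns in the cycloleucine library (exact interval 35.7% to 36.9%) and 36.8% in the untreated library (36.2% to 37.4%), from 9112 and 9126 intron reads. Among the other members this share ran from 3.43% in Mlx to 24.2% in Mxi1 in the cycloleucine library and from 2.80% to 24.9%, in the same genes, in the untreated library. Myc introns are short, 2267 bases in all beside 2767 bases of exon. In GENCODE M21 the gene lies on the plus strand of chromosome 15 from 61985391 to 61990374 in mm10, its exons merge into 4 blocks, and the 3 gaps between them measure 1082, 118 and 1067 bases. The table starts the gene 50 bases earlier, and does not say which gap holds the intron reads.

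Per kilobase, Myc introns held 69.5% of the exon read density in the cycloleucine library and 71.04% in the untreated library. The median of 8776 annotated genes with at least 200 bases of intron was 3.21% in the cycloleucine and 3.18% in the untreated library, and the other 8 members lay between 1.49% and 8.48% in the cycloleucine and between 1.62% and 12.9% in the untreated library. Only 89 genes in the cycloleucine library and 86 in the untreated library were at or above Myc. Few Myc reads crossed a junction, 332 in the cycloleucine and 302 in the untreated library. They were 2.08% of uniquely placed exon reads in the cycloleucine and 1.93% in the untreated library, where the median gene had 22.6% in the cycloleucine and 22.8% in the untreated library. GENCODE annotates no other gene over Myc. Which transcripts carried these intron reads was not tested.

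**Figure D4:**
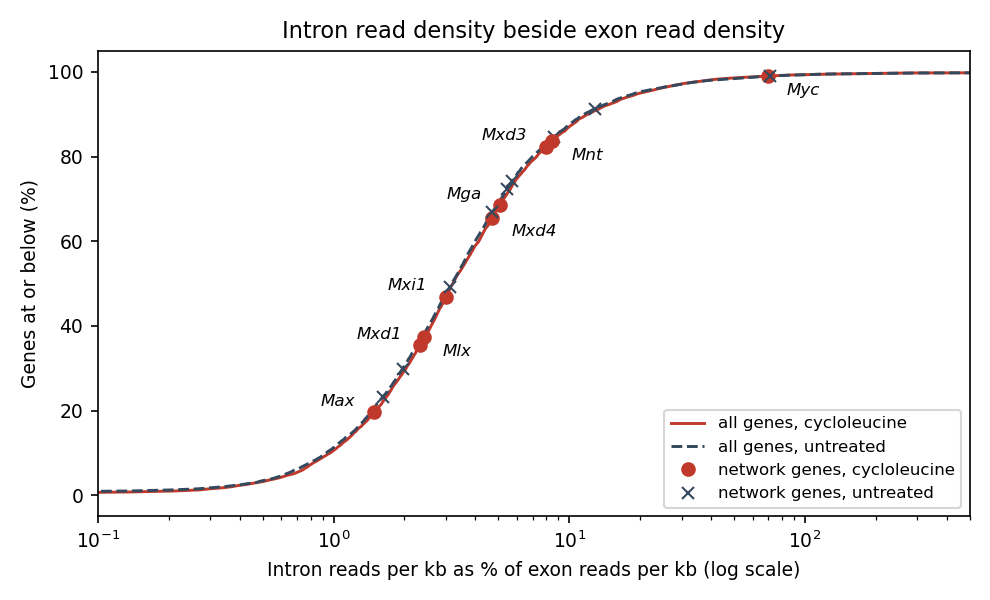
Cumulative share of 8776 genes by intron reads per kilobase as a percentage of exon reads per kilobase (log axis), in the cycloleucine and the untreated library, with the 9 network genes marked. Myc lies near the top of both curves, at 69.5% in the cycloleucine and 71.04% in the untreated library, and the other 8 genes lie on the main slope.

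Between the libraries, Myc intron and exon reads were both lower, by amounts that did not differ beyond counting error. Intron reads were 0.848-fold (0.823 to 0.873). Junction reads of Myc, relative to uniquely placed reads, were 0.956-fold (0.815 to 1.12), an interval that held 1-fold and also the exon fold of 0.867. The log2 change of the intron to exon ratio was -0.03 (-0.08 to 0.02). Such ratio changes were compared for 6803 annotated genes that reached 100 intron reads and 200 exon reads when the libraries were summed, of which the middle 95% lay between -0.66 and 0.72. Among the 6 members with enough reads, Mnt had the lowest, -0.60 (-1.11 to -0.09), and 3.22% of genes were as low or lower. Mxd4 was at -0.28 (-0.53 to -0.04), Max at -0.12, Mxi1 at -0.06 and Mga at 0.11, the last 3 with intervals that included 0. From uniquely placed reads the change of Mxd4 was -0.09 (-0.35 to 0.17), an interval that included 0, and that of Mxi1 was 0.08 (-0.24 to 0.41), above 0. In Mxd1 the change was -1.22 (-1.90 to -0.53), but from 77 intron reads over both libraries, below the minimum, as were those of Mxd3 and Mlx.

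Around Myc few listed features held reads, and reads outside listed features were not measured. Within 1 Mb the table listed 10 other features, 6 of them without reads, and 1 of the 10, Pvt1, passed the filter. Pvt1, a noncoding RNA gene whose locus is a known second site of plasmacytoma translocations, had 1.85 RPKM in the cycloleucine and 2.40 RPKM in the untreated library, from 414 and 455 exon reads. Its fold was 0.773 (0.675 to 0.884), a log2 fold change of -0.36, the same direction as Myc. Intron reads of Pvt1 were 1732 in the cycloleucine and 1673 in the untreated library. These counts are not scaled to the larger read total of the cycloleucine library and do not show a higher intron level in it.

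Of the 4 related partners outside the set, Mycl was the 1 that passed the filter. Mycl, a paralog of Myc, had 15.9 RPKM in the cycloleucine library and 11.9 RPKM in the untreated library, from 2050 and 1303 exon reads, a fold of 1.34 (1.246 to 1.43). It was higher where Myc was lower, and remained far below Myc in level. Mycn had 4 reads in each library, and the MLX partners Mlxip and Mlxipl were as low, Mlxip with 11 exon reads in the cycloleucine and 9 in the untreated library and Mlxipl with 7 in the cycloleucine and 1 in the untreated library. Of 7 kept genes for other bHLH-zipper factors that bind E-boxes, 6 lay below 0 and 5 had an interval below 1-fold, with a median log2 fold change of -0.20. Over all kept features 49.1% lay below 0 and 21.0% had an interval below 1-fold. Among these Tfap4, itself a known MYC-induced gene, was at -0.37 (629 reads in the cycloleucine and 694 in the untreated library) and the lipid synthesis regulator Srebf1 at -0.30 (1884 reads in the cycloleucine and 1978 in the untreated library). None of the 7 passed 1.5-fold.

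The medians of 2 cofactor lists lay close to 0. MYC coactivators and elongation factors had a median log2 fold change of -0.02 over 22 genes, 15 below 0 and 0 past 1.5-fold. Of the 22, 9 had an interval below and 4 one above 1-fold. The acetyltransferase genes Ep300 and Kat5 were at 0.27 and 0.26, and Zbtb17, which encodes a zinc finger partner of MYC, was at -0.21. SIN3 corepressor genes, whose products bind the MXD proteins, had a median of -0.02 over 16, with 3 intervals below and 4 above 1-fold. Ing2 was at 0.46 and Sin3a at -0.21, and 0 were past 1.5-fold. Of the Sin3a exon reads 46.5% were uniquely placed. MGA partners in its Polycomb complex had a median of -0.14 over 9, with 5 intervals below and 3 above 1-fold, and Ring1, a ubiquitin ligase subunit, passed the rule at -0.59 (2.85 RPKM in the cycloleucine and 4.34 RPKM in the untreated library). Of all kept features 49.1% lay below 0, 21.0% had an interval below and 22.9% one above 1-fold. At least 1.5-fold lower were 2.47%, and 5.49% passed 1.5-fold in either direction.

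Genes that act on MYC protein or Myc mRNA were spread to both sides. MYC turnover genes had a median of 0.0087 over 17, with 9 above and 8 below 0. Of the 17, 6 had an interval below and 2 one above 1-fold, where 21.0% of all kept features had one below and 22.9% one above. Past 1.5-fold was 1 gene. That was Stub1, a chaperone-linked ubiquitin ligase gene, at -0.67 (6.05 RPKM in the cycloleucine and 9.66 RPKM in the untreated library). Only 47.8% of the Stub1 exon reads were uniquely placed. Fbxw7, named here outside the rule for named genes as the ligase known for degrading MYC, was at 0.01. Btrc was at -0.44, Usp36, a nucleolar deubiquitinase of MYC, at -0.26, and the kinase gene Pim3 at 0.24. Of 9 proteins known to bind Myc or similar unstable mRNAs, Zfp36 was past 1.5-fold, at 0.92 (280 reads in the cycloleucine and 123 in the untreated library), and the list median was -0.06. Hnrnpd was at -0.40, Syncrip at -0.29 and Elavl1 at -0.14, and 33.8% of the Syncrip exon reads were uniquely placed. Of all kept features 50.9% lay above 0, 49.1% below 0 and 5.49% past 1.5-fold in either direction.

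Of 58 kept MYC-induced genes in 3 lists, 41 lay below 0 and 17 above, where 49.1% of all kept features lay below 0. An interval below 1-fold was found for 29 and one above for 9, where 21.0% of all kept features had one below and 22.9% one above. Without the nucleolar list 23 of 36 lay below 0, 14 with an interval below and 7 with one above 1-fold. None of the 58 passed 1.5-fold, which 5.49% of kept features did in either direction. The median log2 fold change was -0.12 for 22 nucleolar genes, -0.05 for 14 cell cycle and translation genes and -0.03 for 22 metabolic and mitochondrial genes. In the nucleolar list Nop56, of box C/D snoRNPs, was at -0.49 with 52.9 RPKM in the cycloleucine and 74.3 RPKM in the untreated library, Rrp12 at -0.44, Gnl3 at -0.30 and Tcof1 at -0.27. Within the cell cycle list the phosphatase gene Cdc25a was at -0.52 (8.39 RPKM in the cycloleucine and 12.04 RPKM in the untreated library), E2f1 and Eif2s1 at -0.24, but E2f2 was at 0.55 (26.3 RPKM in the cycloleucine and 17.9 RPKM in the untreated library). Metabolic genes stayed nearest to 0, with hexokinase Hk2 at -0.26, the transferrin receptor Tfrc at -0.23, the lactate transporter Slc16a1 at -0.22 and Tfb2m at 0.21. Of the Tfb2m exon reads 21.6% were uniquely placed. The lower values of nucleolar genes were already known from these libraries when the lists were made and are not independent of it.

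CACGTG stood in the promoter window of 16 of 50 MYC-induced genes with an entry, 32%. The share was 12.7% of the kept features with an entry, and 1 of 8 MYC-repressed genes with an entry (12.5%). Among the kept MYC-induced genes, the 16 with the E-box had a median log2 fold change of -0.05, 10 of them below 0. The 33 without it had -0.09, 24 of them below 0. The difference between these was not tested.

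Of 6 kept genes that MYC is known to repress, 5 lay above 0, as did 50.9% of all kept features, and 3 had an interval above 1-fold, as did 22.9% of all kept features. Their median log2 fold change was 0.33, and 0.15 without Ccng2, with 4 of the other 5 above 0 and 2 with an interval above 1-fold. Ccng2, which encodes a cyclin linked to growth arrest, passed 1.5-fold at 1.33, with 2.999 RPKM in the cycloleucine and 1.13 RPKM in the untreated library, a value already known from these data when the list was made. The cyclin-dependent kinase inhibitor gene Cdkn1b was at 0.52 (8.44 RPKM in the cycloleucine and 5.86 RPKM in the untreated library) and Gadd45a at 0.52 (6.69 RPKM in the cycloleucine and 4.62 RPKM in the untreated library). For Cdkn1a, at 0.15, the interval of the fold included 1 (0.927 to 1.34). Another 4 listed genes were too low to measure. Of the MLX and MondoA targets, Txnip was at -0.20 and Klf10 at 0.14, both with intervals that included 1-fold, Txnip from 90 reads in the cycloleucine and 89 in the untreated library and Klf10 from 231 in the cycloleucine and 177 in the untreated library. Of the Txnip exon reads 20.7% were uniquely placed, 22 in the cycloleucine and 15 in the untreated library, too few to pass the filter on low values. The median of Txnip and Klf10 was -0.03 from all reads. From uniquely placed reads the list value was 0.18, which is that of Klf10 alone. These values cover different genes and do not show a shift of the list.

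**Figure D5:**
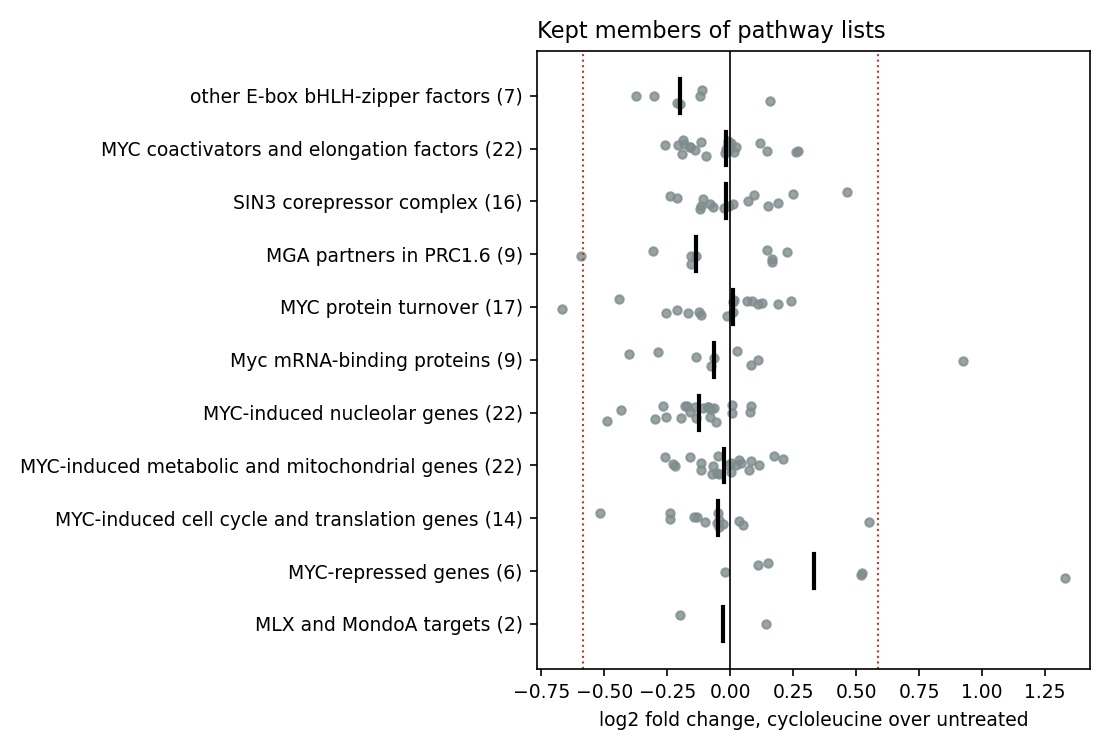
Log2 fold change of each kept gene in 11 pathway lists (number kept in parentheses), with list medians as black bars, 0 as a solid line and 1.5-fold as dotted lines. Nucleolar MYC-induced genes centre at -0.12 and MYC-repressed genes at 0.33, or 0.15 without Ccng2, and 4 genes lie beyond the dotted lines.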

How the data were processed

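The authors deposited raw read counts per gene, split into exon, intron and junction reads, total and uniquely placed, and RPKM values, per the file headers. Per the submitters' processing notes, mm10 was the build. No source used here names the aligner, the counter, the annotation release or the use of strand. The deposited RPKM equalled exon reads (gene reads for features with no transcript) per kilobase and scaled to gene reads in all 43346 features of both libraries, within a share of 0.0001.

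Fold changes are ratios of RPKM with exact Clopper-Pearson counting intervals at 95%. Junction folds are relative to uniquely placed gene reads. Intervals of ratio changes are normal approximations from 4 counts. Python 3.11.15, NumPy 2.4.6, pandas 2.3.3 and SciPy 1.17.1 were used, and the 1.5-fold rule was checked on simulated counts. Reads were amplified by PCR without molecular identifiers, so they may repeat molecules and the intervals can be too short. The floor for a count of 0 is 3 counts, 0.0939 RPKM in the cycloleucine and 0.111 RPKM in the untreated library for 1 kb of exon.

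The members and lists were chosen with earlier results of these data known. Named genes were all members, up to 4 kept genes of each of 12 lists furthest from 0, and kept features within 1 Mb of Myc. The result of 1 named gene is left out. The table had 0 columns of other libraries.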

Additional observations from a re-analysis of the deposited data

How the results depend on the processing

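No paired analysis was possible because there was 1 library in each group. Depth limits Mxd1, Mxd3 and Mnt most, with 192 to 402 exon reads each. The log2 fold change of Myc was -0.17 from uniquely placed reads, outside its counting interval, where library totals alone shift values by 0.03, and the other 57 of 58 values for members moved by less than their interval, as did 12 of 12 intron to exon ratio changes. Among these, with uniquely placed reads, that of Mxd4 was -0.09 in place of -0.28 and no longer excluded 0, and that of Mxi1 was 0.08 in place of -0.06. No member at least 1.5-fold higher remained with a pseudocount of 1 RPKM, from 5 RPKM upwards or at 2-fold (0 in each), the second of which drops Mxd1 from the genes compared. Features at least 1.5-fold higher and lower were 150 and 108 with a pseudocount of 1, 2755 and 2581 with no filter, 122 and 82 from 5 RPKM upwards, and 164 and 113 from 200 reads upwards. They were 70 and 64 at 2-fold and 932 and 761 at 5/4-fold. Of 84 list medians 2 moved by more than the typical counting interval of their genes, both with no filter, to 0.21 for other MYC and MLX partners and to 0.055 for Myc mRNA-binding proteins. Without the nucleolar list, a choice made after seeing the data because its lower values were known, 23 MYC-induced genes lay below 0 in place of 41, from 36 genes in place of 58. Leaving Ccng2 out of the MYC-repressed genes, chosen likewise, gave a median of 0.15. More low features enter with no filter and fewer under stricter ones, and otherwise the cause was not tested.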
